A study of Homo sapiens with 10 samples.

Results

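Solute carriers are membrane proteins that move sugars, amino acids, ions, metals, nucleosides, vitamins and many drugs across the plasma membrane and the membranes of mitochondria, lysosomes and other organelles. The expression of these genes was followed in Kasumi-1, a line of human acute myeloid leukemia cells that carries t(8;21), after the E proteins E2-2, E2A and HEB had each been brought in. Members were the genes of the deposited table whose name is SLC, a family number, A and a member number, and whose reads summed to 100 or more over the 4 RNA libraries. Of 334 genes with such a name, 179 from 44 families met this rule, 144 had between 1 and 99 reads and 11 had no read. The whole table holds 50868 genes, and 12765 of them had 100 or more reads. The read sum chose the members and is no finding. The 3 members just inside the threshold were SLC5A10 with 111 reads, SLC9A5 with 112 and SLC25A34 with 116. The 3 genes just outside were SLC2A4 with 96 reads, SLC46A1 with 94 and SLC16A9 with 93. Solute carrier genes named by another scheme, such as the nucleotide sugar transporter genes of SLC35B to SLC35G, are not members.

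The study compared E2-2, E2A and HEB, which are helix-loop-helix DNA-binding proteins encoded by TCF4, TCF3 and TCF12, in cells that hold the AML1-ETO fusion. Each of 3 groups received one HA-tagged factor by retrovirus, and the remaining group received the MIGR1 vector. All groups were the same cell line, GFP-positive cells were sorted 4 days after infection, and each group had 1 RNA library. The cells are a single line, the factors are overexpressed from a vector, and RNA of a resident and a transduced factor is counted together. HA ChIP-seq libraries were not analysed here.

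The libraries held 14816708 to 17673090 counted reads. Each transduced factor gene was highest in its own library: TCF4 had 12484 reads in E2-2 against 4 in vector, TCF3 23186 in E2A against 3934 in vector, and TCF12 13842 in HEB against 2568 in vector. Levels are given in CPM (counts per 1000000 scaled reads). The 11 measured markers of Kasumi-1 and myeloid blasts ranged widely, with 170661 to 298092 reads of the myeloperoxidase gene MPO, 9497 to 13607 of KIT and 62 to 161 of the cathepsin G gene CTSG. They were not all level between libraries: CD33, at 115 CPM in E2-2, 85.7 in E2A, 90.0 in HEB and 28.3 in vector, and TRH, at 1065 CPM in E2-2, 563 in E2A, 232 in HEB and 115 in vector, were over 2-fold higher than in vector in all 3 E protein libraries. AZU1 was at 329 CPM in E2-2 against 636 in vector, and CD34 at 166 against 253. Markers of other cells were scarce, apart from the B cell marker CD79B. The 12 erythroid markers summed to between 1.85 and 4.17 CPM and 4 of them had no read. The 8 fibroblast and packaging cell markers summed to between 1.67 and 2.24 CPM, with LUM and THY1 at 0. The 6 T and B cell markers summed to 10.0 CPM in E2-2, 14.0 in E2A, 12.6 in HEB and 14.0 in vector. Most of this came from CD79B, at 8.97 CPM in E2-2, 11.9 in E2A, 10.5 in HEB and 10.3 in vector. CD3D had 2 reads in E2-2 against 34 in vector. Since RNA was pooled from many cells, fewer expressing cells and less RNA per cell cannot be told apart.

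Each group being 1 library, nothing could be checked against replicates and no p-value is given. A fold is the ratio of CPM values. The range after it in parentheses is its exact 95% interval for counting error, and variation from culture to culture is not part of it. Calls needed a fold of 2 or more, an interval clear of 1 and 30 or more reads over the pair of libraries. Genes with enough reads for a call are termed measured. Calls describe these libraries. No member was without reads in any library, the lowest count being 4. Whether counting used the strand is not given in the sources used here, and 11 of the 36 members called against vector share part of their span with another gene of 100 or more reads.

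Against vector, E2-2 had 21 members called higher and 13 lower of 179 measured. Beside these 11.7% and 7.26%, the background over all 12756 measured genes with 100 or more reads was 7.49 percent higher and 3.15 percent lower. E2A had 11 members higher and 4 lower of 178, beside 4.54 percent and 1.11 percent of all genes. HEB had 6 members higher and 1 lower of 178, beside 2.48 percent and 0.796 percent. The median log2 fold of the members was -0.11 in E2-2, -0.06 in E2A and 0.04 in HEB, against -0.04, -0.01 and 0.02 over all genes. The 3 comparisons share the vector library. Counts over members describe genes chosen partly by read number and are not a test of the family.

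**Figure D1:**
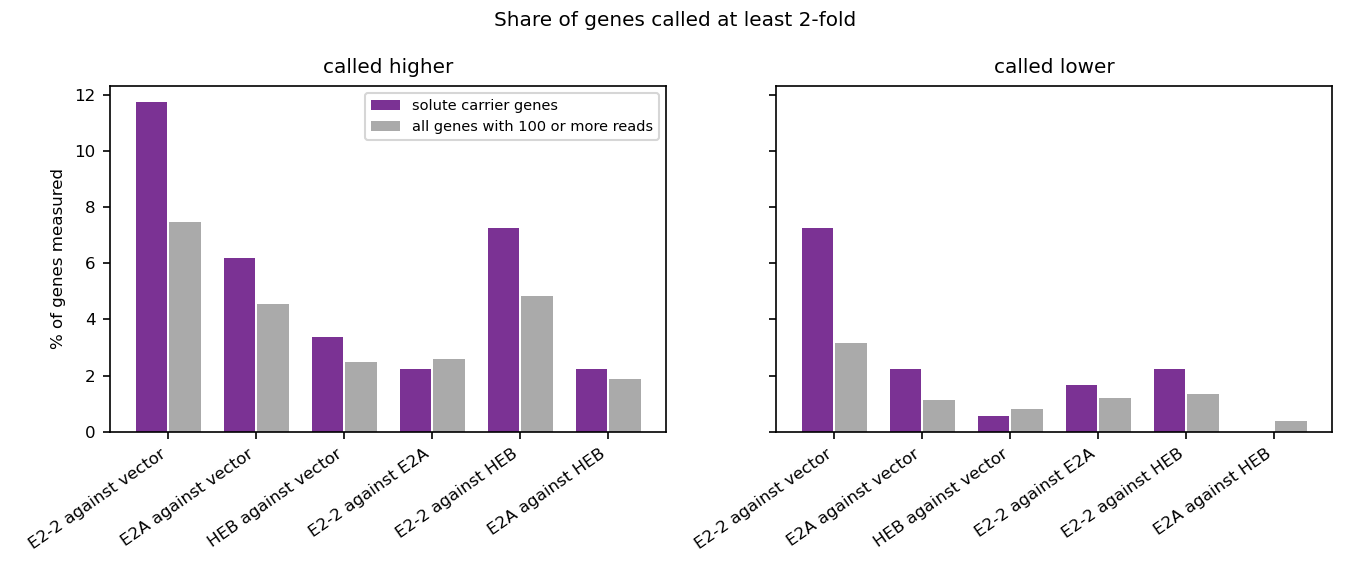
Percent of measured genes called at least 2-fold higher (left panel) or lower (right panel) in the 6 comparisons, for solute carrier genes and for all genes with 100 or more reads. In E2-2 against vector the solute carrier bars stand at 11.7% and 7.26% and those of all genes at 7.49% and 3.15%.

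Most of the family stayed close to vector: 109 of 179 members lay under 1.5-fold from vector in all 3 E protein libraries (60.9%), against 71.9% of all genes. Calls against vector fell on 36 members (20.1%), beside 12 percent of all genes. No member was called higher in one E protein library and lower in another, as was the case for all but 2 of the 12765 genes (0.0157 percent). Of 6 members called higher in all 3 (3.35%, beside 2.11 percent of all genes), SLC12A2, SLC25A45, SLC26A10, SLC28A3 and SLC30A3 are described here. In 28 members (15.6%) the level was graded with E2-2 highest, then E2A, HEB and vector, and in 29 members (16.2%) the order was the exact reverse. Over all genes these orders held for 12.9% and 12.2%. By library, 46 members were highest in E2-2 (25.7%), 19 in E2A (10.6%), 60 in HEB (33.5%) and 54 in vector (30.2%), against 30.7%, 16.9%, 23.3% and 29.2% of all genes. E2-2 was the lowest library for 77 members (43.0%) and for 37.2% of all genes. Summed over members the level was 9945 CPM in E2-2, 9964 in E2A, 10421 in HEB and 9901 in vector.

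**Figure D2:**
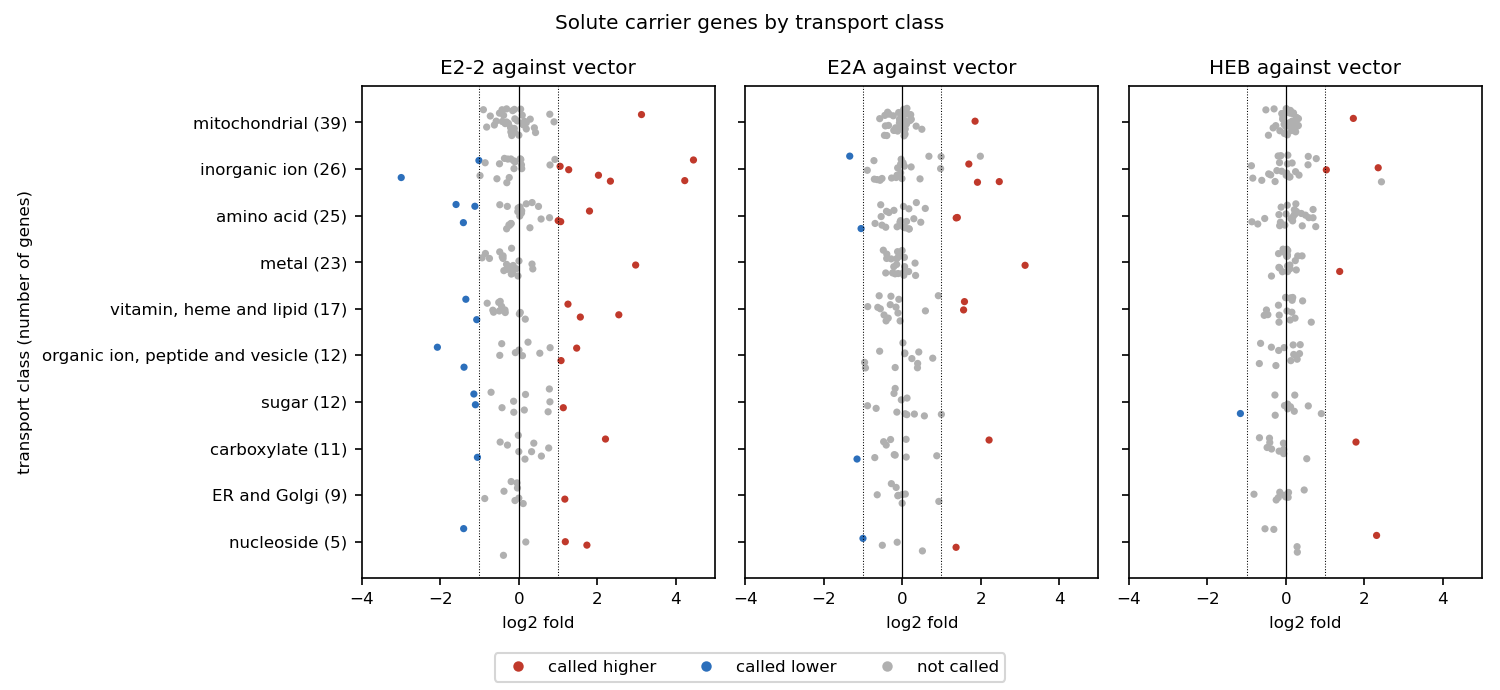
Log2 fold against vector (horizontal axis) of every solute carrier gene, 1 point per gene, in rows by transport class, for E2-2, E2A and HEB. Dotted lines mark 2-fold. Points spread most in E2-2, from -2.99 to 4.45, where the mitochondrial carriers other than SLC25A45 lie between -0.90 and 0.90.

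E proteins bind DNA at E-boxes, short sites of the form CANNTG. The bases before each gene's start were therefore read from RefSeq (GRCh38.p14), 250 per window, for the 145 members with an entry, which gave 217 windows. Some genes have several starts, and their windows can overlap. Both strands were searched. The motif CAGGTG stood, on one strand or the other, in 40 windows of members (18.4%) and in 17.5% of all 35116 windows. CAGCTG, which is its own reverse complement, stood in 33 (15.2%), against 14.0% of all windows. The general form CANNTG, which includes both, stood in 61.3% and 61.8%. Among windows of members called higher in E2-2, CAGGTG stood in 6 of 24, CAGCTG in 4 and CANNTG in 11 (45.8%). Among windows of members called lower in E2-2, the numbers were 2, 5 and 10 of 13 (76.9% for CANNTG), and CANNTG stood in 62.2% of the windows of members not called. These are letter matches and show no binding.

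Windows of 4 called genes are shown because they cover the cases met: a gene called higher in all 3 libraries with no CANNTG at all (SLC12A2), one with 2 copies of CAGGTG, of which 1 reads on the other strand (SLC30A3), one with 2 copies of the palindrome CAGCTG (SLC7A6), and the member with the largest fold downwards (SLC26A9), which holds neither. Capitals mark these motifs on either strand. Each sequence is 5′ to 3′ on the gene's strand.
SLC12A2, chr5:128083516-128083765, plus strand: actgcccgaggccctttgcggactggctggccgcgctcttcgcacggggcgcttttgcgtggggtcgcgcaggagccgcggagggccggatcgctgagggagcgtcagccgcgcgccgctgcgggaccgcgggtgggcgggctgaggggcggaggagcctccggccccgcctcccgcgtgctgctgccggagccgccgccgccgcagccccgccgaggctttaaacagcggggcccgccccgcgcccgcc
SLC30A3, chr2:27275347-27275596, minus strand: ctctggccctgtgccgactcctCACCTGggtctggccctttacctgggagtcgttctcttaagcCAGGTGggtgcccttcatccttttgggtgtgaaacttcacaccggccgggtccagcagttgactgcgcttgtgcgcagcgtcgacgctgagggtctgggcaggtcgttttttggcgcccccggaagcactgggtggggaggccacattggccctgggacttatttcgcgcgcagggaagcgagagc
SLC7A6, chr16:68264276-68264525, plus strand: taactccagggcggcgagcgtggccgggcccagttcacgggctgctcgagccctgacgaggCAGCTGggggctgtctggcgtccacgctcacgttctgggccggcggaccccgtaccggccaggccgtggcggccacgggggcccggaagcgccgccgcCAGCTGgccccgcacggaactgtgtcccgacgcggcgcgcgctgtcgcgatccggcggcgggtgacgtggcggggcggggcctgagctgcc
SLC26A9, chr1:205943457-205943706, minus strand: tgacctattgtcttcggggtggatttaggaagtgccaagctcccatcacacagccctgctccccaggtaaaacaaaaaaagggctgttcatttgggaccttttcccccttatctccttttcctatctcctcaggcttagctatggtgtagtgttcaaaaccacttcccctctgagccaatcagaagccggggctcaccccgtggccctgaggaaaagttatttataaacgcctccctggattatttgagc
The SLC30A3 window lies before one of 2 listed starts and inside the span the table gives for the gene. The window before its other start holds no CANNTG.

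Among transporters of inorganic ions, 6 of 26 members were called higher and 2 lower in E2-2. Of 25 measured, E2A had 3 higher and 1 lower, and HEB 2 higher and 0 lower. Over all genes, 7.49 percent were called higher and 3.15 percent lower in E2-2. The shares were 4.54 percent and 1.11 percent in E2A, and 2.48 percent and 0.796 percent in HEB. These shares also stand beside the counts of each transport class below, and no class was tested against them. SLC12A2 (chromosome 5, 128083766 to 128189688) codes for NKCC1, which carries sodium, potassium and chloride into cells and helps set cell volume. It stood at 249 CPM in E2-2, 159.6 in E2A, 101 in HEB and 49.2 in vector. The 4 counting intervals do not overlap. The summed level of the class had the same order, with 1437 CPM in E2-2, 1377 in E2A, 1232 in HEB and 1109.7 in vector. The folds of SLC12A2 over vector were 5.05 (4.67–5.46) in E2-2, 3.24 (2.99–3.52) in E2A and 2.05 (1.88–2.23) in HEB.

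SLC12A7, for the potassium and chloride exporter KCC4, was 2.08-fold (1.89–2.28) higher in E2-2. E2A, at 1.60-fold (1.46–1.76) higher, was not called, nor was HEB, at 64.8 CPM against 43.5 in vector. SLC4A8, for a sodium-driven bicarbonate transporter, had 47 reads in E2-2, 45 in E2A, 19 in HEB and 20 in vector. It was called in E2-2 at 2.42-fold (1.40–4.31) and not in E2A, at 2.55 CPM against 1.28 in vector. Directly, E2-2 was 1.22-fold (0.791–1.87) above E2A. In both E2-2 and E2A the SLC4A8 count is over 2 times that in HEB. The gene's span overlaps that of GALNT6, which had 548 reads in E2-2, 593 in E2A, 414 in HEB and 326 in vector.

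SLC26A10 and SLC34A3 were near silent in vector. SLC26A10 (chromosome 12, 57619527 to 57626151), which RefSeq lists as a transcribed pseudogene, had 149 reads in E2-2, 44 in E2A, 38 in HEB and 7 in vector. It was 21.9-fold (10.4–55.4) higher in E2-2, 5.55-fold (2.48–14.6) in E2A and 5.12-fold (2.26–13.6) in HEB. Its span overlaps B4GALNT1, which had 254 reads in E2-2, 175 in E2A, 198 in HEB and 91 in vector, so that its reads are less certain than the intervals say. SLC34A3 (chromosome 9, 137230757 to 137236554), for a sodium-phosphate cotransporter known from the kidney, had 73 reads in E2-2, 18 in E2A, 23 in HEB and 4 in vector. It was called in E2-2 at 18.8-fold (7.03–70.7), while E2A and HEB held too few reads for a call. With SLC25A45 and SLC48A1, these 2 genes are the 4 members with over 50% of their summed CPM in 1 library, E2-2 in each case. Without the E2-2 library, 10 members would fall below the threshold of 100 reads, among them 5 that were called higher in E2-2 (SLC4A8, SLC22A15, SLC25A45, SLC26A10 and SLC34A3) and 1 that was called lower (SLC5A10).

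SLC26A9 (chromosome 1, 205913048 to 205943460), for an epithelial chloride transporter, went the other way. It had 73 reads in E2-2, 268 in E2A, 346 in HEB and 598 in vector. E2-2 was the lowest of the libraries and vector the highest, at 4.81 CPM against 38.3 CPM. The folds were 7.96 (6.24–10.3) lower in E2-2 and 2.53 (2.18–2.93) lower in E2A, while HEB was 1.83-fold (1.60–2.10) lower and not called. Its chromosomal neighbour SLC41A1, for a magnesium transporter, lies 99300 bases away and had log2 folds of -0.21, -0.09 and 0.02 in E2-2, E2A and HEB. Of the same family, SLC26A8, a testis anion transporter gene, had 26 reads in E2-2 against 54 in vector and was called lower at 2.02-fold (1.24–3.36), a call lost with other library scalings. SLC26A6 was 1.18-fold (1.09–1.28) lower in E2-2 and SLC26A2, the sulfate transporter gene, 1.09-fold (1.02–1.16) lower.

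**Figure D3:**
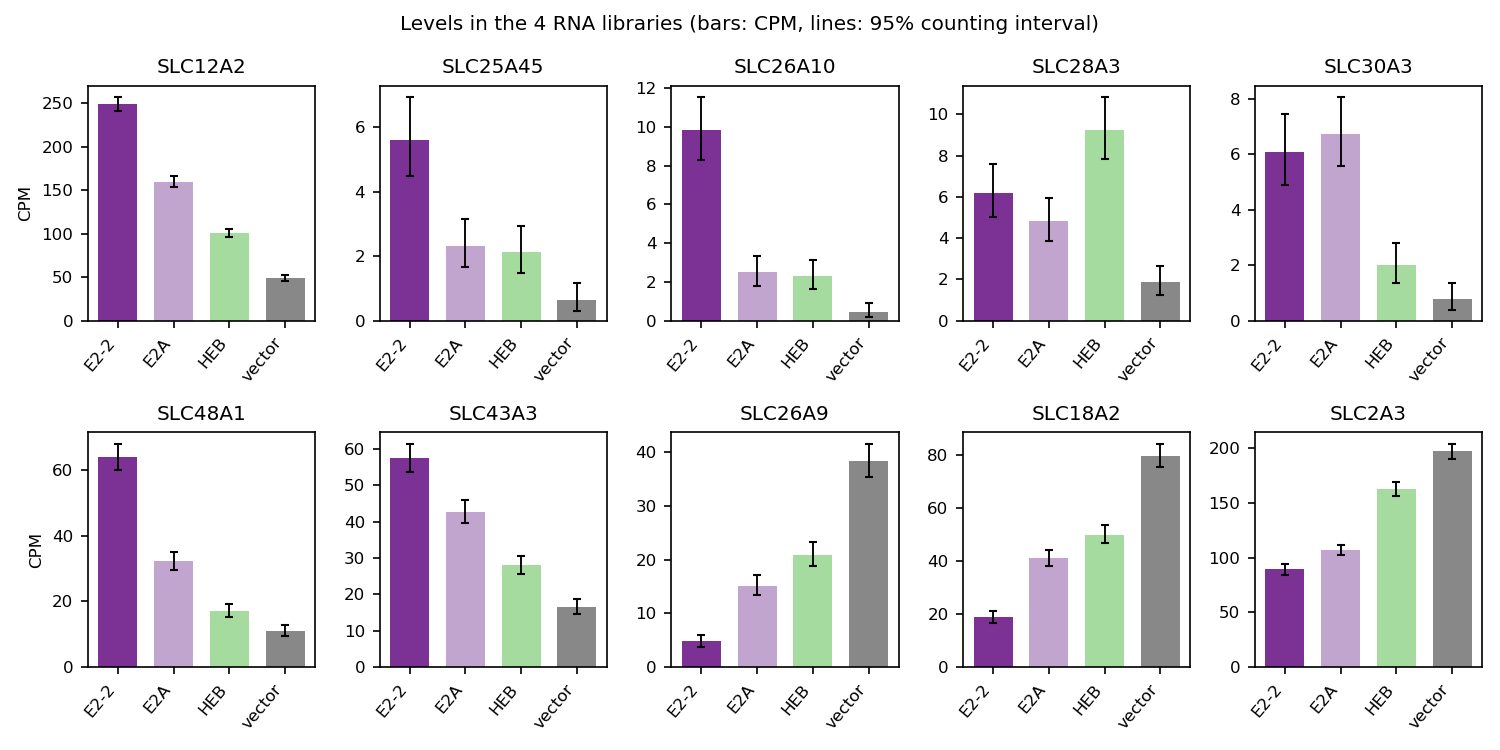
Levels in CPM (vertical axes, each from 0) of 10 solute carrier genes in the E2-2, E2A, HEB and vector libraries, with 95% counting intervals as lines. The first 5 genes were called higher in all 3 E protein libraries, SLC48A1 and SLC43A3 in E2-2 and E2A, and SLC26A9, SLC18A2 and SLC2A3 are lowest in E2-2, at 4.81, 19.0 and 89.4 CPM.

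Amino acid transporters were called in both directions, 3 higher and 3 lower of 25 in E2-2, 2 higher and 1 lower in E2A and 0 in HEB. SLC43A3, placed here by its family although it carries purine nucleobases, was at 57.5 CPM in E2-2, 42.7 in E2A, 28.0 in HEB and 16.5 in vector. It was called in E2-2 at 3.49-fold (3.03–4.03) and in E2A at 2.59-fold (2.25–3.00). Its neighbour and relative SLC43A1, which carries large neutral amino acids, lies 56954 bases away and was 1.22-fold (1.10–1.36) lower in E2-2. SLC1A4, for the alanine and serine transporter ASCT1, was called in E2-2 only, at 2.10-fold (1.91–2.30), with 1.39-fold (1.26–1.53) in E2A. SLC7A6, a partner of SLC3A2 that exchanges basic and neutral amino acids, was 2.01-fold (1.78–2.27) higher in E2-2. Its span overlaps SLC7A6OS, which had 165 reads in E2-2, 194 in E2A, 187 in HEB and 160 in vector. RP11-96D1.8, also overlapping, had 38, 37, 15 and 18 reads in the same order.

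SLC38A5, for the glutamine transporter SNAT5, was the member called higher against vector in E2A and in neither other library. Its level was 189 CPM in E2-2, 290.4 in E2A, 178 in HEB and 109.8 in vector, a fold of 2.65 (2.50–2.80) in E2A. Set directly against E2-2 and HEB, E2A was 1.54-fold and 1.63-fold higher, neither of them called. SLC38A3, for the related SNAT3, had 27 reads in E2-2, 46 in E2A, 49 in HEB and 84 in vector and was called lower in E2-2 (3.02-fold, 1.94–4.86) and E2A (2.07-fold, 1.43–3.03). SLC6A9, for the glycine transporter GLYT1, had 26 reads in E2-2, 74 in E2A, 81 in HEB and 58 in vector. It was 2.17-fold (1.34–3.59) lower in E2-2 than in vector. The span of SLC6A9 overlaps CCDC24, which had 41 reads in E2-2, 50 in E2A, 43 in HEB and 34 in vector. The orphan family member SLC6A16 had 15 reads in E2-2 against 41 in vector, 2.66-fold (1.44–5.17) lower.

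The amino acid transporters best known from tumour cells stayed under the 2-fold rule. SLC7A5, the large neutral amino acid transporter that pairs with SLC3A2, was at 225 CPM in E2-2, 194 in E2A, 227 in HEB and 151 in vector, and its folds of 1.48 (1.41–1.57), 1.28 (1.22–1.35) and 1.502 (1.43–1.58) were under the 2-fold rule. SLC3A2 itself was 1.14-fold (1.07–1.22) higher in E2-2. The cystine transporter gene SLC7A11 was 1.42-fold (1.22–1.65) higher in E2-2, 1.05-fold (0.904–1.23) in E2A and 1.62-fold (1.41–1.87) in HEB. The glutamine transporter gene SLC1A5 was 1.15-fold (1.07–1.23) lower in E2-2 and 1.13-fold (1.06–1.21) higher in HEB. SLC38A1, which held the most reads of any member, was 1.27-fold (1.23–1.30) higher in E2-2, and SLC38A2, beside it on chromosome 12, was 1.02-fold (0.977–1.06) higher.

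**Figure D4:**
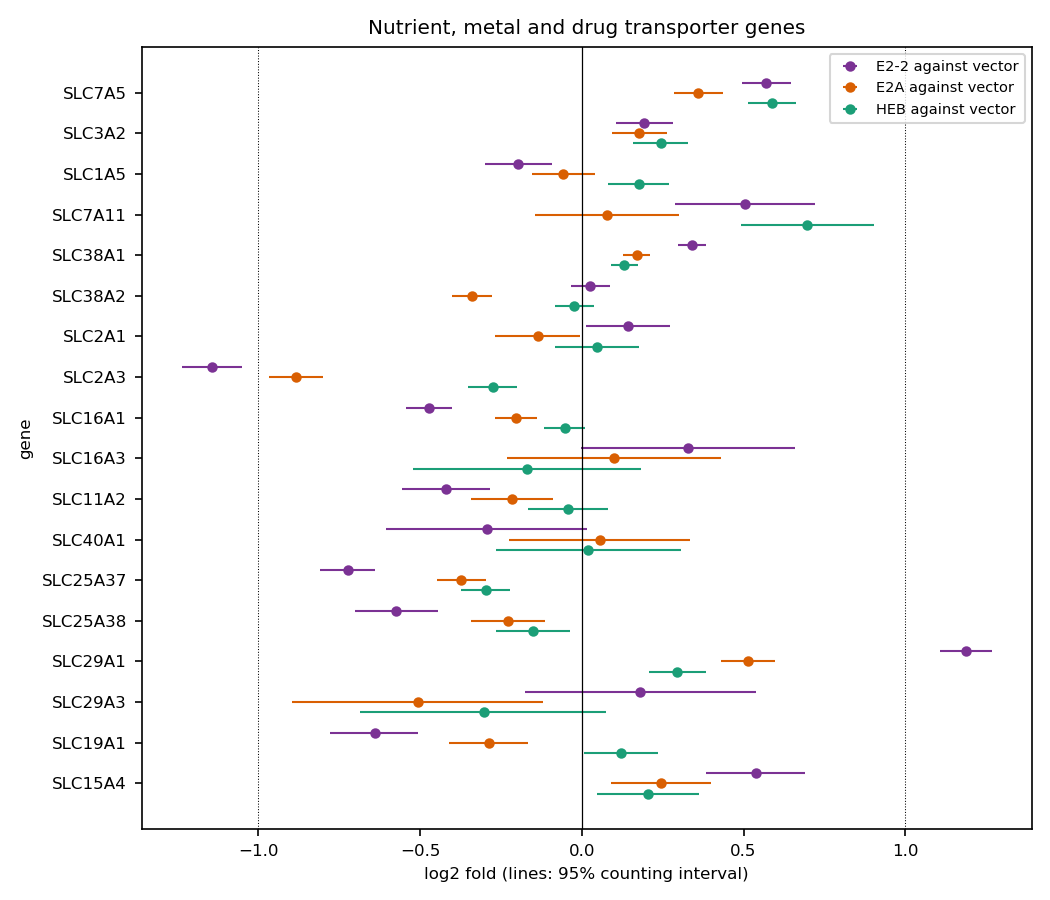
Log2 fold against vector (horizontal axis) with 95% counting intervals for 18 nutrient, metal and drug transporter genes in E2-2, E2A and HEB. SLC29A1 in E2-2 lies right of the dotted 2-fold line and SLC2A3 in E2-2 left of the other one, at 2.28-fold higher and 2.21-fold lower, and all other points lie between the lines.

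Of 12 sugar transporters 1 was called higher and 2 lower in E2-2, 0 in E2A, and 0 higher and 1 lower in HEB. SLC2A3, for the high-affinity glucose transporter GLUT3, was at 89.4 CPM in E2-2, 107 in E2A, 163 in HEB and 197 in vector. It was called lower in E2-2 (2.21-fold, 2.07–2.36) and stood at 1.85-fold (1.74–1.96) lower in E2A. Its near copy SLC2A14 had 18 reads over the 4 libraries, though reads of the pair can be shared. SLC2A1, for GLUT1, was 1.10-fold (1.01–1.21) higher in E2-2 and 1.10-fold (1.00–1.20) lower in E2A. The fructose transporter gene SLC2A5 had 188 reads in E2-2, 199 in E2A, 175 in HEB and 88 in vector. It was called higher in E2-2 at 2.20-fold (1.70–2.86), while E2A at 1.996-fold (1.55–2.60) and HEB at 1.87-fold (1.44–2.45) were not called. Directly, E2-2 was 1.10-fold (0.897–1.35) above E2A and 1.17-fold (0.949–1.45) above HEB. SLC5A10, of the sodium-glucose cotransporter family, was called lower in E2-2 and HEB with 19 and 20 reads against 42 in vector. The fold in E2-2 was 2.15 (1.22–3.91). Its span overlaps FAM83G, which had 116 reads in E2-2, 176 in E2A, 149 in HEB and 187 in vector. GRAP, also overlapping, had 38, 61, 46 and 31 reads in the same order.

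Of 11 carboxylate and related transporters, 1 was called higher and 1 lower in E2-2, 1 and 1 in E2A, and 1 and 0 in HEB. SLC16A10, which carries aromatic amino acids and thyroid hormones, had 264 reads in E2-2, 519 in E2A, 573 in HEB and 563 in vector and was called lower in E2-2 at 2.07-fold (1.79–2.41). The lactate transporter genes SLC16A1 and SLC16A3 were 1.39-fold (1.32–1.46) lower and 1.25-fold (0.998–1.58) higher in E2-2. SLC16A14, a family member of unclear substrate, had 74 reads in E2-2, 26 in E2A, 34 in HEB and 51 in vector and was called lower in E2A (2.22-fold, 1.36–3.71).

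Nucleoside transporters matter in leukemia because they carry cytarabine and related drugs. Of 5, E2-2 had 2 higher and 1 lower, E2A 1 and 1, and HEB 1 and 0. SLC29A1, for the main such carrier ENT1, was at 275 CPM in E2-2, 173 in E2A, 148 in HEB and 121 in vector, and its 2.28-fold (2.16–2.41) in E2-2 was called. E2A was 1.43-fold (1.35–1.51) and HEB 1.23-fold (1.16–1.30) higher. SLC28A3, for the concentrating transporter CNT3, was the one gene called higher in all 3 E protein libraries for which HEB was highest, with 94 reads in E2-2, 85 in E2A, 153 in HEB and 29 in vector. Its folds were 3.33 (2.18–5.25) in E2-2, 2.59 (1.68–4.09) in E2A and 4.97 (3.33–7.67) in HEB. Directly, E2A was 1.92-fold (1.46–2.54) lower than HEB, which was not called. SLC29A4, a monoamine transporter gene, had 50 reads in E2-2, 77 in E2A, 100 in HEB and 136 in vector and was called lower in E2-2 (2.64-fold, 1.90–3.73) and in E2A, where its fold of 2.00 (1.502–2.68) is on the threshold and the call was lost with other library scalings. It overlaps TNRC18, which had 5711 reads in E2-2, 6987 in E2A, 6952 in HEB and 6227 in vector. Summed over the 5 nucleoside transporter genes the level was 318 CPM in E2-2, 217 in E2A, 209 in HEB and 171 in vector, and SLC29A1 supplied 78.2% of the reads. The lysosomal SLC29A3 was 1.13-fold (0.886–1.45) higher in E2-2.

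The 39 mitochondrial carriers had 1 call in each comparison with vector, SLC25A45 each time. This carrier gene (chromosome 11, 65375192 to 65383701) had 85 reads in E2-2, 41 in E2A, 35 in HEB and 10 in vector, with folds of 8.74 (4.53–18.9), 3.62 (1.78–8.10) and 3.30 (1.60–7.47). Summed, the 39 carriers stood at 2414 CPM in E2-2, 2599.9 in E2A, 2739 in HEB and 2722 in vector. The 9 mitochondrially encoded genes, measured beside them, summed to 44255 CPM in E2-2, 47178 in E2A, 48817 in HEB and 53357 in vector, none of them called, and their part in the carrier levels was not tested. The neighbouring SLC22A20 had log2 folds of 0.01, 0.07 and 0.19. The other mitochondrial carriers lay between -0.90 and 0.90 in E2-2 on the log2 scale, with SLC25A10, the dicarboxylate carrier gene, at the lower end and SLC25A42, the coenzyme A carrier gene, at the upper. SLC25A37, which brings iron into mitochondria for heme synthesis, was at 118 CPM in E2-2, 150.2 in E2A, 158 in HEB and 194 in vector, 1.65-fold (1.56–1.75) lower in E2-2. SLC25A38, which serves the glycine needed for heme, was 1.49-fold (1.36–1.63) lower in E2-2.

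Metal transporters also had 1 call among 23 members in each comparison with vector, SLC30A3 each time. This gene (chromosome 2, 27253684 to 27275817) codes for ZnT3, which loads zinc into synaptic vesicles of neurons. It had 92 reads in E2-2, 119 in E2A, 33 in HEB and 12 in vector, and its folds were 7.89 (4.30–15.8), 8.75 (4.83–17.4) and 2.59 (1.30–5.51). Its neighbour SLC5A6, 40726 bases away, had log2 folds of -0.70, -0.21 and 0.12. The other metal transporters lay between -0.93 and 0.36 in E2-2 on the log2 scale. SLC11A2, an iron importer gene, was 1.34-fold (1.22–1.47) lower in E2-2, and SLC40A1, the iron exporter gene, was 1.23-fold (0.989–1.52) lower. SLC11A1, a phagosome metal transporter gene, had 17 reads in all and is not a member.

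Carriers of vitamins, heme and lipids had the lowest class median in E2-2, -0.44 on the log2 scale, against -0.29 in E2A and 0.03 in HEB. In E2-2, 3 of 17 were called higher and 2 lower, in E2A 2 higher and 0 lower, and in HEB 0. SLC48A1 (chromosome 12, 47753916 to 47782753), which moves heme out of lysosomes, was at 63.8 CPM in E2-2, 32.2 in E2A, 17.1 in HEB and 10.9 in vector, 5.86-fold (4.97–6.93) higher in E2-2 and 2.95-fold (2.49–3.53) in E2A. Its 4 intervals do not overlap. Its span overlaps HDAC7, which had 1648 reads in E2-2, 1760 in E2A, 1796 in HEB and 1856 in vector. SLC23A1, a vitamin C transporter gene, was called in E2-2 at 2.39-fold (1.47–3.98) and in E2A at 3.00-fold (1.90–4.89), and overlaps PAIP2. The lysosomal SLC46A3 was 2.97-fold (2.00–4.49) higher in E2-2. SLC27A2, which takes up and activates fatty acids, had 227 reads in E2-2 against 594 in vector (2.54-fold lower, 2.18–2.98). Its span overlaps ATP8B4, which had 123 reads in E2-2, 63 in E2A, 78 in HEB and 92 in vector. SLC44A2, a choline transporter gene, was 2.10-fold (1.82–2.43) lower in E2-2. The folate transporter gene SLC19A1, which also carries methotrexate, was 1.56-fold (1.42–1.71) lower in E2-2, 1.22-fold (1.12–1.33) lower in E2A and 1.09-fold (1.00–1.18) higher in HEB.

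Among carriers of organic ions, peptides and vesicle contents, E2-2 had 2 of 12 higher and 2 lower, and E2A and HEB had none called. SLC18A2 (chromosome 10, 117241093 to 117279430) codes for VMAT2, which loads histamine and other monoamines into granules and vesicles. It was at 19.0 CPM in E2-2, 41.1 in E2A, 50.1 in HEB and 79.9 in vector. It was 4.21-fold (3.70–4.80) lower in E2-2, called, and 1.94-fold (1.77–2.13) lower in E2A. The overlapping gene PDZD8 had 1148 reads in E2-2, 1505 in E2A, 1496 in HEB and 1524 in vector. Also overlapping SLC18A2, RP11-129M16.4 had 31 reads in E2-2, 51 in E2A, 51 in HEB and 66 in vector. RP11-501J20.5, likewise overlapping, had 7, 19, 12 and 33 reads in the same order. SLC22A4, for the ergothioneine transporter OCTN1, was 2.63-fold (2.26–3.07) lower in E2-2, called, and 1.91-fold (1.68–2.18) lower in E2A and 1.29-fold (1.15–1.45) lower in HEB, neither called. Its neighbour SLC22A5, the carnitine transporter gene 25546 bases away, was 1.07-fold (0.773–1.48) higher. The span of SLC22A4 overlaps P4HA2, which had 73 reads in E2-2, 126 in E2A, 128 in HEB and 110 in vector. The peptide transporter gene SLC15A2 was 2.11-fold (1.52–2.96) higher and SLC22A15 2.78-fold (1.57–5.18) higher in E2-2. SLC15A4, which serves endosomal Toll-like receptor signalling in plasmacytoid dendritic cells, was 1.45-fold (1.31–1.61) higher, and its relative SLC15A3 had 61 reads in all and is not a member. Of 9 carriers of the endoplasmic reticulum and Golgi, SLC37A1, a sugar phosphate exchanger gene, was called in E2-2 at 2.26-fold (1.89–2.71), and E2A and HEB had no call, with SLC37A1 at 1.91-fold (1.59–2.29) and 1.38-fold (1.14–1.68) higher.

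Direct comparisons set the E protein libraries against each other. Between E2-2 and E2A, 4 members were higher and 3 lower in E2-2 of 179, beside 2.59 percent and 1.21 percent of all genes. SLC34A3 was 4.73-fold (2.79–8.41) higher in E2-2, SLC26A10 3.95-fold (2.80–5.66), SLC16A14 3.32-fold (2.10–5.40) and SLC25A45 2.42-fold (1.65–3.60). SLC26A9 was 3.15-fold (2.42–4.14) lower in E2-2, SLC6A9 2.44-fold (1.54–3.98) and SLC18A2 2.16-fold (1.88–2.49).

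Between E2-2 and HEB, 13 members were higher and 4 lower in E2-2, beside 4.85 percent and 1.36 percent of all genes. SLC26A10 was 4.28-fold (2.98–6.28) higher in E2-2, SLC48A1 3.73-fold (3.27–4.28), SLC34A3 3.46-fold (2.14–5.80) and SLC12A2 2.47-fold (2.33–2.61). SLC26A9 was 4.34-fold (3.37–5.67) lower in E2-2, SLC6A9 2.86-fold (1.82–4.63), SLC18A2 2.64-fold (2.30–3.03) and SLC22A4 2.04-fold (1.74–2.39). The call of SLC22A4, 1 of the 4 lower, was lost with library totals and with FPKM. Between E2A and HEB, 4 members were higher and 0 lower in E2A, beside 1.87 percent and 0.392 percent. They included SLC30A3 at 3.38-fold (2.28–5.13), SLC23A1 at 2.65-fold (1.73–4.17) and SLC4A8 at 2.22-fold (1.27–4.02).

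**Figure D5:**
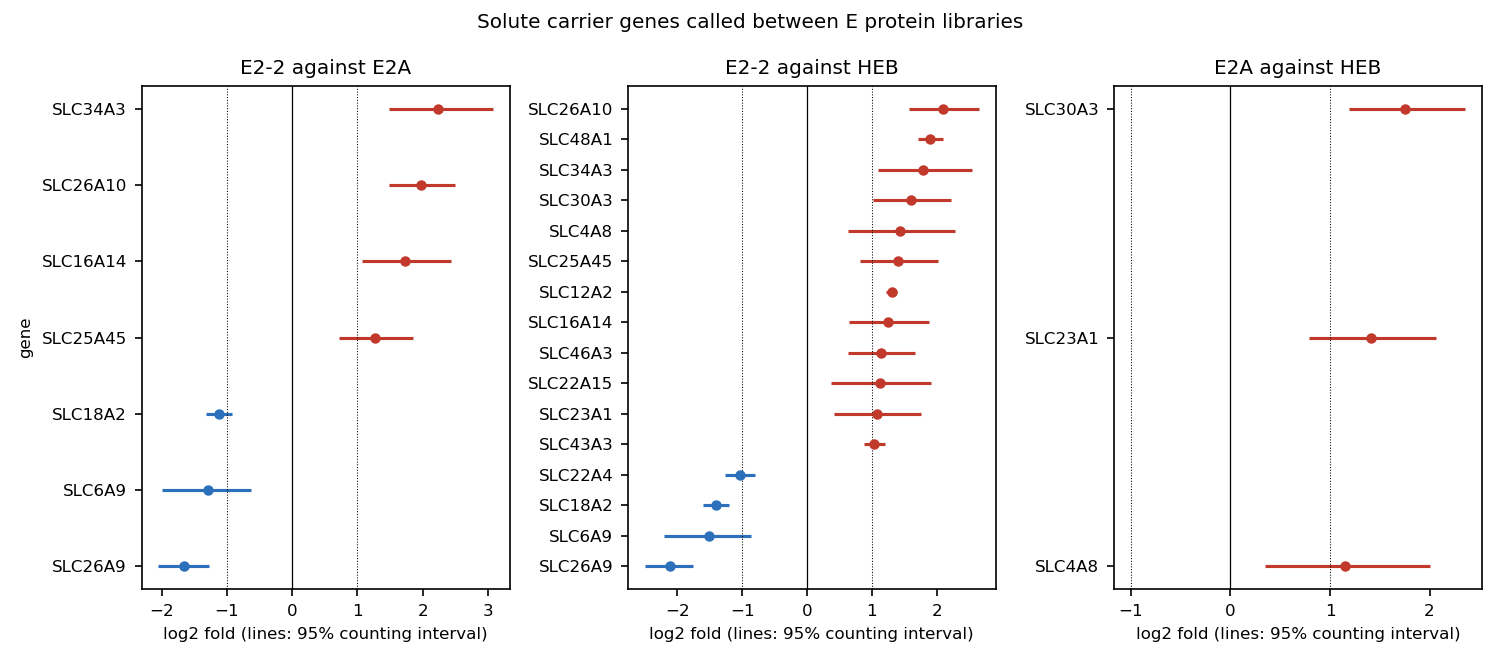
Log2 fold (horizontal axis) with 95% counting intervals of solute carrier genes called in each direct comparison, 1 row per gene, higher in red and lower in blue; not every called gene is drawn. E2-2 against E2A holds 4 higher and 3 lower genes, E2-2 against HEB has 4 lower genes and E2A against HEB 0.

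Genes that work with solute carriers were compared by the same rule. Of 14 measured partners and drivers of transport, 2 were called higher in E2-2, 1 in E2A (FTH1) and 0 in HEB. In each library 0 were called lower, and the median log2 folds were 0.28, 0.19 and 0.19. Over all genes, 7.49 percent were called higher and 3.15 percent lower in E2-2. The shares were 4.54 percent and 1.11 percent in E2A, and 2.48 percent and 0.796 percent in HEB. MPC1, a subunit of the mitochondrial pyruvate carrier, was at 67.9 CPM in E2-2, 27.7 in E2A, 27.5 in HEB and 17.4 in vector, and was 3.91-fold (3.41–4.48) higher in E2-2. MPC2, for the carrier's other subunit, was not called, at 20.8 CPM in E2-2, 22.0 in E2A, 23.5 in HEB and 25.3 in vector. FTH1, the ferritin heavy chain gene, whose many pseudogene copies can share reads, was 5.14-fold (4.54–5.84) higher in E2-2. BSG, for the chaperone of SLC16A1 and SLC16A3, was at 454 CPM in E2-2, 484 in E2A, 666 in HEB and 744 in vector. Of 18 measured regulators of nutrient responses, TFEB and EPAS1 were called higher in E2-2 and MYC lower, with a median log2 fold of -0.05. In E2A and in HEB 17 of them were measured. TFEB was also called higher in E2A, and HEB had 0 calls, with medians of -0.17 and 0.08. The shares over all genes given for the partners stand beside these counts as well. TFEB, a regulator of lysosome genes, had 55 reads in E2-2, 55 in E2A, 22 in HEB and 15 in vector. MYC, which drives many nutrient transporter genes, was at 142 CPM in E2-2 against 330 in vector, 2.33-fold (2.21–2.45) lower. Their part in the transporter differences was not tested.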

How the data were processed

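RNA-seq was made from 4 libraries, 1 each for E2-2, E2A, HEB and vector. TRIzol extraction and TruSeq RNA library preparation are stated per the labels' protocols. Tools named in the submitters' processing notes, with no role or order, are HTSeq 0.9.1, TopHat2 2.0.9, MACS2 2.1.1.20160309 and Bowtie2 2.2.9, beside builds hg19 and hg38. The authors deposited a whole-number read count per Ensembl gene. They also deposited FPKM values, per the file headers, whose ratios to vector were 0.99999 to 1.00001 times those of counts over library totals. FPKM was used as an alternative scaling and not to compare genes. Of the members, 177 matched a RefSeq gene of GRCh38 by symbol and all 177 overlapped it, so positions are given on that build.

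TMM scaling of all 4 libraries used edgeR 4.0.16 under R 4.3.3. Intervals are Clopper-Pearson intervals of the conditional binomial share, computed with Python 3.11.15 and scipy 1.17.1. Reads may be PCR copies of one molecule, so the intervals cover counting error only. The fold, interval and call steps were run on simulated counts that held counting error only. Variation between cultures and folds near the threshold were not part of that simulation. Alternatives used DESeq2 1.42.0 size factors, library totals, FPKM, other read minimums and other fold thresholds.

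The members and gene lists were chosen with earlier results of these data known. Transport classes follow the SLC family number. Genes named are the 10 highest and 10 lowest called members against vector by the interval bound nearest to 1, up to 3 called members of each class, the 5 highest and 5 lowest in direct comparisons, and 21 transporters whatever their values, of which 18 are members. Neighbours within 200 kb, family relatives, other called members, overlapping genes and the ends of class ranges were named after their values were seen. Results for some members that meet this rule are not reported here.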

Additional observations from a re-analysis of the deposited data

How the results depend on the processing

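No paired analysis was possible because each group had 1 library, and for the same reason no replicate could be left out. With DESeq2 size factors, library totals or FPKM, and with no read minimum, every count of called members stayed within 1.5 times the one reported. The scaling shifted all genes by at most 0.0546 on the log2 scale. Library totals and FPKM are in effect the same scaling, their ratios to vector being 0.99999 to 1.00001 times each other. Percentages after the counts that follow are those of all measured genes under the same setting. At 1.5-fold the calls lower were 27 (9.55%) in E2-2, 16 (4.77%) in E2A and 9 (3.44%) in HEB against vector, and the calls higher 19 (8.35%) in E2A and 13 (4.90%) in HEB. In direct comparisons they were 14 (6.06%) higher and 7 (3.96%) lower for E2-2 against E2A, 22 (9.81%) and 23 (6.20%) for E2-2 against HEB, and 10 (4.91%) and 4 (2.32%) for E2A against HEB. At 3-fold, E2-2 had 10 (4.07%) higher and 3 (0.776%) lower against vector, E2A 7 (2.45%) higher and 0 (0.0864%) lower, and HEB 0 (0.0552%) lower. In direct comparisons at 3-fold, 1 (0.313%) was lower for E2-2 against E2A, 4 (2.12%) were higher and 1 (0.259%) lower for E2-2 against HEB, and 1 (0.651%) was higher for E2A against HEB. With at least 100 reads in the 2 libraries, HEB against vector had 2 (1.63%) higher and 0 (0.490%) lower. Fold thresholds and read minimums do not alter a fold, so only the scaling could change a direction. None of 126 named folds changed direction with it, which says little given the small shift. The calls of SLC26A8 in E2-2 and SLC29A4 in E2A were lost with DESeq2 size factors, library totals and FPKM, and that of SLC22A4 between E2-2 and HEB with library totals and FPKM. A minimum of 100 reads removed 21 of these calls. Depth limits members with few reads in vector: 7 had fewer than 25.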

Other observations

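Solute carriers that go by other names were compared in the same way. Of 32 measured genes of this kind, 5 were called higher and 0 lower in E2-2, beside 7.49 percent and 3.15 percent of all genes, 2 higher in E2A beside 4.54 percent and 1 in HEB beside 2.48 percent, with median log2 folds of -0.12, 0.05 and 0.02. UCP2, a mitochondrial uncoupling protein gene, was at 169 CPM in E2-2, 111 in E2A, 79.3 in HEB and 67.8 in vector, 2.49-fold (2.32–2.68) higher in E2-2. CTNS, which exports cystine from lysosomes, was at 23.7 CPM in E2-2, 11.0 in E2A, 11.6 in HEB and 10.5 in vector, 2.27-fold (1.88–2.75) higher in E2-2. FLVCR2 was 2.17-fold (1.64–2.89) higher in E2-2. SPNS3 had 150 reads in E2-2, 160 in E2A, 34 in HEB and 47 in vector. SLCO4C1, an organic anion transporter gene, had 146 reads in E2-2, 148 in E2A, 96 in HEB and 44 in vector and was called in all 3.

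Of 24 genes with 100 or more reads whose SLC name follows another scheme, SLCO4C1 and SLC35C1 were called higher in E2-2 and none lower, beside the same percentages of all genes. SLC35C1, which carries GDP-fucose into the Golgi, had 657 reads in E2-2 against 286 in vector, 2.36-fold (2.05–2.72) higher. SLCO4C1 belongs to both groups of genes.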
